A study of Mus musculus with 3 samples.

Results

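Late-numbered miRNAs are entries that joined the miRNA catalogue once the abundant, widely conserved families were already listed. On the mouse panel used here they were chosen by a rule on the name, set with earlier results of these data known. It took every probe with a miRNA number of 1000 or above, except miR-1193 and miR-1197, together with miR-720. This gave 110 of the 566 probes, and 2 of these 110 name a pair of miRNAs each. Levels were read in serum of female BALB/c mice, aged 6 to 8 weeks when purchased, that carried mammary tumours of 4T1, a mouse cell line used as a model of triple-negative breast cancer. Each mouse received 100000 cells in a mammary fat pad and was killed on day 28. Tn+ serum came from mice with Tn+ tumours, grown from 4T1/Tn+ cells in which CRISPR/Cas9 was aimed at exon 2 of Cosmc (written Ccosmc in the labels), the chaperone needed to extend O-glycans, so that the short Tn glycan is left exposed. Tn- serum came from mice with Tn- tumours, whose cells the labels do not describe further. The labels name 1 Tn+ line. Serum was pooled within Tn status before RNA extraction, which left 2 Tn+ pools and 1 Tn- pool. The labels give at least 8 mice per group. The number of mice in each pool, and whether the Tn+ pools hold different mice, are not given. Differences below therefore describe these 3 pools only, with no replicate of Tn- serum.

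Most miRNAs are cut from hairpin transcripts by the nuclear enzyme Drosha and then by Dicer. Mirtrons skip the first cut: a short intron is spliced out, folds into a hairpin and goes straight to Dicer. Some late catalogue entries were later withdrawn because the sequence proved to be a piece of another abundant RNA. miR-720 is the known case, a fragment of a transfer RNA, and entries of the miR-1274 and miR-1937 groups are likewise tRNA fragments. In serum such fragments are read by a hybridization probe in the same way as a miRNA.

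The sequences below are those of the 2 members with the highest Tn+ signal, of the 2 other matched members that passed a 2-fold rule given further on, and of the remaining matched member that reached 10 units. They were taken from RefSeq (GRCm38.p6) and are written 5′ to 3′ with the seed, bases 2 to 8, in capitals. The probes for miR-1224 and miR-1198 name no arm, so both arms are shown.
miR-1224-5p: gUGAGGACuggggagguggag
miR-1224-3p: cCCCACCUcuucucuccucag
miR-2137: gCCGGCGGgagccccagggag
miR-1198-5p: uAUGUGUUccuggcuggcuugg
miR-1198-3p: aAGCUAGCcucuaacucauggc
miR-2136: cUGGGUGUugacugagaugug
miR-1933-5p: aGUCAUGGuguucggucuuaguuu
The 5p arm of miR-1224 lies at chr16:20604452-20604472 and the 3p arm at chr16:20604516-20604536, both on the plus strand and inside the span of Vwa5b2. miR-2137 lies at chrX:72992113-72992133, plus strand, inside the span of Zfp185. The miR-1198 arms lie at chrX:7807142-7807163 and chrX:7807180-7807201, plus strand, inside Gripap1. miR-2136 lies at chr9:104426163-104426183, plus strand, outside every other listed gene, and miR-1933-5p at chr11:21344640-21344663, minus strand, inside Ugp2. The table used gives gene spans, so exon or intron was not read from it. None of these seeds was found in another matched probe of the panel.

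The hairpin of miR-1224 shows the mirtron form, with the splice-site letters of an intron at its ends in capitals.
Mir1224 hairpin: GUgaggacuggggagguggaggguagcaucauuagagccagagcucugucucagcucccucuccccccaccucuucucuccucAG
It is 85 bases long and spans chr16:20604452-20604536, plus strand. The 5p arm starts at its first base and the 3p arm ends at its last base. The hairpin counts leave out a chromosome. Of the 61 member hairpins counted, 3 begin with GU and end with AG, those of miR-1224, miR-1981 and miR-1982, against 5 of the 367 hairpins of panel miRNAs counted. Only miR-1224 of the 3 had much signal, since miR-1981 was at the lowest value in every pool and miR-1982 reached 1.67 units in Tn+ pool 1 alone. miR-2137 is rich in G and C, at 85.7% of its bases, where the median of the 198 panel probes matched to a single name was 52.4%. Of those 198 probes only miR-2861 was richer, at 94.7%, and it was at the lowest value in all pools. A mature sequence was found for 72 of the 110 members, 53 under the probe's own name and 19 under a name with an arm added, of which 17 had both arms and 2, miR-1955 and miR-1966, had 1 arm listed. The members reaching 10 units without one were miR-1186, miR-1196, miR-1942, miR-1944, miR-2133, miR-2135, miR-2138, miR-2183 and miR-720.

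The values are normalized signals from the NanoString nCounter assay, which counts fluorescent barcodes bound to each miRNA without amplification. The pools differed in total, at 59444 and 31977 units in Tn+ serum against 4204 units in Tn- serum, and the authors did not equalise them. Many probes share the lowest value of a pool, called the floor here, at 1 and 1.09 units in Tn+ serum and 1.08 in Tn- serum. Signal above the floor rises in steps of 0.895 and 1.09 units in Tn+ serum and 1.08 units in Tn- serum, so a few units are a few steps. miR-451, the main red cell miRNA, was the highest probe in every pool. The red cell markers miR-451, miR-144 and miR-486 summed to 44578 and 15599 units in Tn+ serum, against 1956 in Tn- serum, where miR-144 was at the floor. The sums of the 4 myeloid markers were 899 and 444 units in Tn+ serum and 289 in Tn- serum, with miR-142-3p and miR-146a at the floor in the Tn- pool. miR-142-5p did not follow that order, at 124 and 201 units in Tn+ serum and 150 units in Tn- serum. miR-126-3p and miR-191, for platelets and endothelium, and miR-122, for liver, were above the floor in both Tn+ pools and at the floor in Tn- serum. All 4 marker sums were thus higher in the Tn+ pools, and their part in the results below was not tested. In pooled serum, more copies per volume and a different source of the RNA cannot be told apart.

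Most late-numbered probes gave no signal in serum, and a few gave a great deal. Of the 110 members, 65 were at the floor in all 3 pools, as were 242 of the other 456 probes. Tn+ pool 1 had 40 members above the floor, Tn+ pool 2 had 25 and the Tn- pool 17, which is 36.4%, 22.7% and 15.5% of the members. In the other 456 probes the shares were 41.2%, 27.4% and 14.9%. Of the 45 members above the floor somewhere, 13 were so in all pools, 8 in both Tn+ pools only, 17 in Tn+ pool 1 only and 3 in Tn+ pool 2 only. Another 2 were above it in Tn+ pool 1 and the Tn- pool, 1 in Tn+ pool 2 and the Tn- pool, and miR-1893 in the Tn- pool only, at 1.58 units. For the 214 other probes above the floor somewhere, the counts in the same order were 47, 58, 72, 16, 11, 4 and 6. At least 10 units in some pool were reached by 13 members and by 76 other probes.

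**Figure D1:**
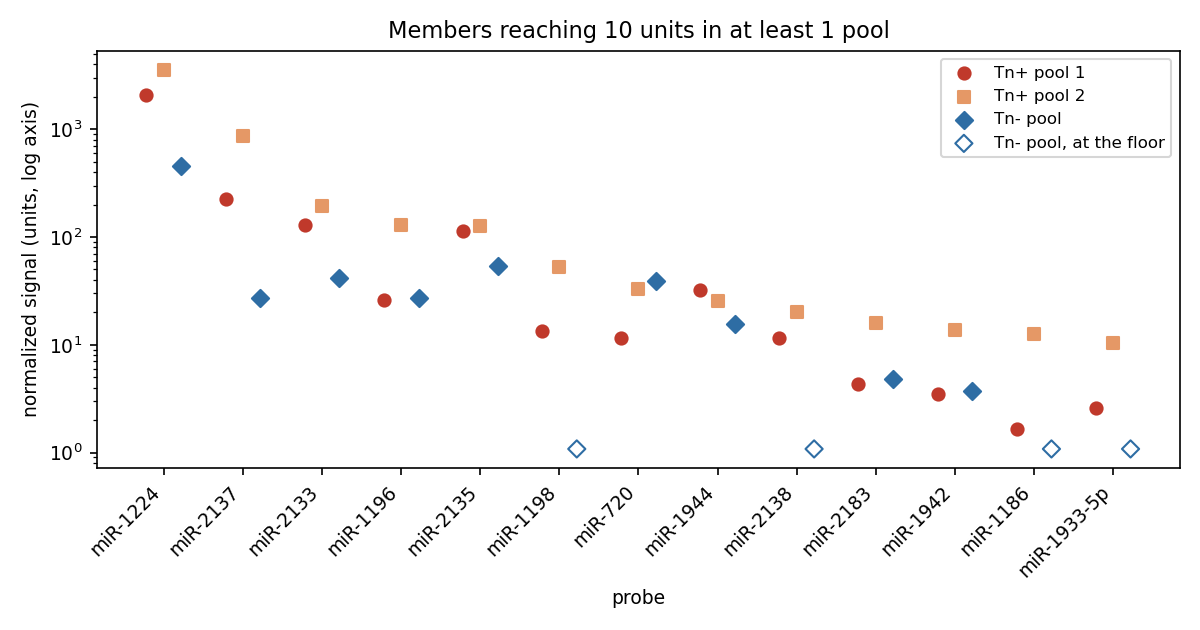
Normalized signal, in units on a log axis, of the 13 members reaching 10 units in at least 1 pool, with Tn+ pool 1 as circles, Tn+ pool 2 as squares and the Tn- pool as diamonds. Open diamonds mark values at the floor of the Tn- pool. miR-1224 stands above all others in each pool, and miR-720 is the only one whose Tn- value is above both Tn+ values.

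miR-1224 had 2096 and 3565 units in the Tn+ pools, against 452 units in the Tn- pool. Both Tn+ pools lay above the Tn- pool, 4.64-fold and 7.89-fold on the deposited scale, and Tn+ pool 2 was 1.70-fold above Tn+ pool 1. By level it was the third probe in each Tn+ pool and the second in the Tn- pool, out of all 566. It held 3.53% of all signal in Tn+ pool 1 and 11.1% in Tn+ pool 2, against 10.8% in the Tn- pool. Its share of the signal was thus about the same in Tn+ pool 2 and the Tn- pool, and lower in Tn+ pool 1. Without miR-451 in the total, the shares were 12.8%, 18.9% and 19.3%. The fitted log2 ratio was 2.59 (SE 0.46, limma adjusted p = 0.305 over all 566 probes).

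miR-2137 had 227 and 867 units in the Tn+ pools, against 27.4 units in the Tn- pool. The Tn+ pools were 8.28-fold and 31.6-fold higher than the Tn- pool, the largest deposited ratios among the 13 members measured above the floor in all pools. Tn+ pool 2 was also 3.81-fold above Tn+ pool 1. It was the 15th probe by level in Tn+ pool 1 and the 6th in Tn+ pool 2, against the 14th in the Tn- pool. Its share of signal was 0.382% and 2.71% in Tn+ serum and 0.653% in Tn- serum, so relative to the total only Tn+ pool 2 was above the Tn- pool. The log2 ratio was 3.97 (SE 1.09, limma adjusted p = 0.449 over all probes).

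miR-720, the tRNA fragment, ran the other way. It had 11.5 and 33.3 units in the Tn+ pools, against 39.3 units in the Tn- pool. Both Tn+ values were below the Tn- value, at 0.293 and 0.847 of it. Its share of signal was 0.0194% and 0.104% in Tn+ serum and 0.935% in Tn- serum, where it was the 11th probe by level. The log2 ratio was -0.96 (SE 0.83, limma adjusted p = 0.895), less than 2 standard errors from 0. The other tRNA-derived probes were low: miR-1937c had 1.67 and 4.97 units in Tn+ serum and 3.73 in Tn- serum, and the shared probe for miR-1937a and miR-1937b had 2.57 units in Tn+ pool 1 and was at the floor elsewhere. miR-1274a was at the floor in all pools. miR-1839, which arises from a small nucleolar RNA, gave 4.36 units for its 5p arm in Tn+ pool 1 and no other value above the floor from either arm.

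miR-2133 and miR-2135 were the next highest members with closely matching Tn+ pools. miR-2133 had 130 and 192 units in the Tn+ pools, against 41.4 in the Tn- pool, with a log2 ratio of 1.90 (SE 0.35, limma adjusted p = 0.305). miR-2135 had 113 and 126 units in the Tn+ pools, against 53.3 in the Tn- pool, with a log2 ratio of 1.14 (SE 0.18, limma adjusted p = 0.272). For both, the 2 Tn+ values lay above the single Tn- value, as they did for 43 of the 60 panel probes above the floor in every pool. The Tn+ pools differed by 1.48-fold and 1.12-fold. The direction of both ratios changed with the scaling of the pools, as given further on. miR-1944 had 32.1 and 25.6 units, against 15.6 in the Tn- pool, about 2.06-fold and 1.65-fold higher.

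In other members the Tn+ pools disagreed. miR-1196 had 25.9 and 128 units in Tn+ serum, against 27.4 in Tn- serum, so that Tn+ pool 1 lay with the Tn- pool and Tn+ pool 2 was 4.66-fold above it. miR-2183 (4.36 and 15.9 units against 4.81 in the Tn- pool) and miR-1942 (3.46 and 13.7 against 3.73) had the same layout at lower levels. Without Tn+ pool 2 the ratio of all 3 was slightly below 0, at log2 values of -0.08, -0.12 and -0.08 in that order of naming. The data of these 3 therefore give no direction for Tn+ over Tn- serum. miR-1198 had 13.3 and 52.8 units in Tn+ serum, with the Tn- pool at the floor. Set over 3 grid steps of that pool (3.23 units), these are 4.12-fold and 16.3-fold. miR-2138 had 11.5 and 20.2 units in Tn+ serum with the Tn- pool at the floor, 3.56-fold and 6.25-fold over 3 steps. miR-1186 and miR-1933-5p had 12.6 and 10.4 units in Tn+ pool 2, but 1.67 and 2.57 units in Tn+ pool 1, which is under 3 steps of the Tn- pool. For both the Tn- value was the floor.

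The other 32 members above the floor somewhere stayed under 10 units. miR-2134 reached 9.73 units in Tn+ pool 1 and was at the floor elsewhere, and miR-2145 had 8.23 units in Tn+ pool 2 alone. miR-2136 had 3.46 and 9.32 units in the Tn+ pools, miR-1940 had 3.46 and 3.88, with both at the floor in Tn- serum. miR-1939 had 1.67 units and the floor in Tn+ serum and 3.73 units in Tn- serum. All values of these 32 are at most 9 steps above the lowest signal above the floor, and no order among them is read here.

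As a share, members higher in Tn+ serum were not more frequent than in the panel. The rule of a 2-fold or larger excess over the Tn- pool in both Tn+ pools, on signal + 1, was met by 8 members, which is 7.27% of the 110, against 12.0% of all 566 probes. They were miR-1198, miR-1224, miR-1940, miR-2133, miR-2135, miR-2136, miR-2137 and miR-2138, and for 4 of the 8 the Tn- value was the floor. No member was at least 2-fold lower in both Tn+ pools, against 0.707% of all probes. Of the 13 members measured above the floor in every pool, 7 had both Tn+ values above the Tn- value, 1 (miR-720) had both below it and 5 had the Tn- value between the Tn+ values. For the 47 other probes measured so, the counts were 36, 3 and 8. The median log2 ratio was 0.48 over the 45 members above the floor somewhere and 0.71 over all 259 such probes. A probe enters these medians through a pool in which it is high, and 17 of the 45 members entered through Tn+ pool 1 alone.

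The limma fit used log2(signal + 1) of all 566 probes, and 0 members and 0 probes of the panel (0%) passed the adjusted threshold of 0.05. Among members, miR-1940 came closest (adjusted p = 0.264). Before adjustment, p was under 0.05 for 7 members, 6 higher (miR-1186b, miR-1224, miR-1940, miR-2133, miR-2135 and miR-2138) and 1 lower (miR-1939) in Tn+ serum, and for 63 probes in all. With only the 259 probes kept that left the floor in some pool, miR-1198 (adjusted p = 0.0171) and miR-2137 (adjusted p = 0.0103) passed in limma, against 11.2% of the probes tested. These 2 also passed among the 58 probes averaging 10 units or more, 9 of them members, where 55.2% of the probes tested passed. miR-1198 entered both filters through the Tn+ pools alone, the group in which it is high, so its calls there are no support for a difference. With values at the floor set to 3 grid steps, 6 members met the 2-fold rule, against 8.30% of all probes, and 5 passed limma (miR-1198, miR-1224, miR-2133, miR-2137 and miR-2138), against 7.60%. Over the alternatives tried, the limma adjusted p ranged from 8.56e-08 to 0.876 for miR-2137, from 5.96e-04 to 0.876 for miR-1198 and from 0.00121 to 0.9995 for miR-1224. The fit has 1 residual degree of freedom, which comes from the Tn+ pools. In both filtered fits and with floors at 3 grid steps, the members given in full that were tested shared 1 standard error per fit. It was 1.15 for probes that left the floor, 1.34 with the mean filter and 0.65 with raised floors. The p-values of these fits were thus not set by each member's own spread between the Tn+ pools.

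**Figure D2:**
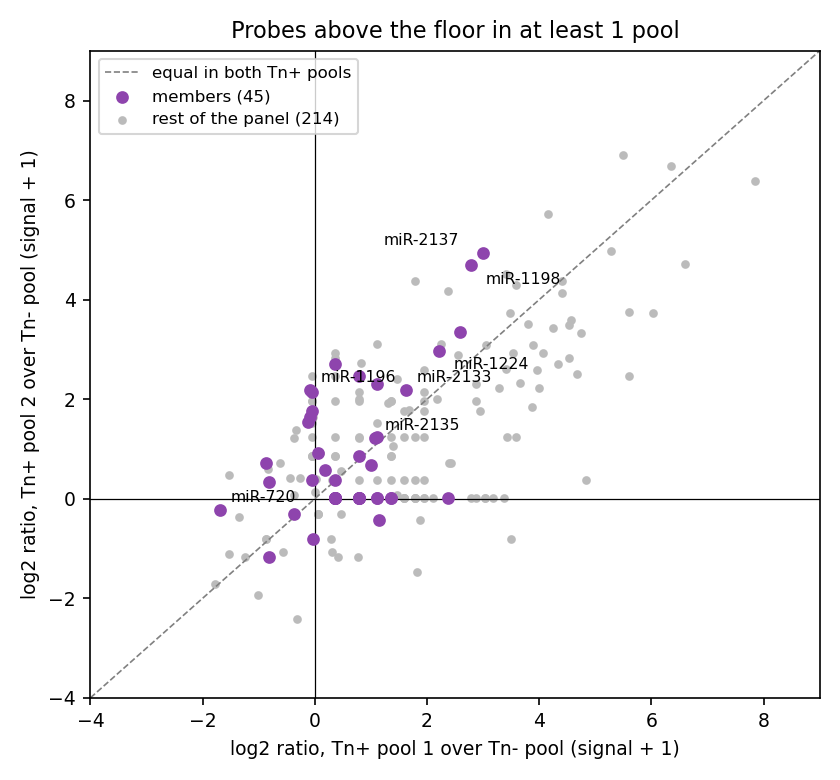
Log2 ratio on signal + 1 of Tn+ pool 1 over the Tn- pool (horizontal) and of Tn+ pool 2 over the Tn- pool (vertical) for probes above the floor somewhere, with 45 members as large points and the other 214 as small points. miR-2137 lies above the diagonal of equal Tn+ pools, the place of miR-1198 next to it depends on the floor of the Tn- pool, and miR-720 is below 0 on both axes.

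Between the Tn+ pools, most of the higher members had more signal in pool 2. Of the 13 that reached 10 units in some pool, 12 were higher there than in Tn+ pool 1, all but miR-1944. Of the 76 other probes reaching 10 units, 30 (39.5%) did. The choice fixes part of the members' count, because miR-1186, miR-1933-5p, miR-1942 and miR-2183 reached 10 units only in Tn+ pool 2 and no member did so only in Tn+ pool 1. Among probes reaching 10 units in both Tn+ pools, a filter added after seeing the data, 8 of 9 members were higher in pool 2, against 14 of 40 other probes. The summed signal of the 110 members was 2822 and 5210 units in Tn+ serum against 788 in Tn- serum, and Tn+ pool 2 was 1.85-fold above Tn+ pool 1. The sum over all other probes without miR-451 was 13579 and 13608 units in Tn+ serum against 1560 in Tn- serum, so the Tn+ pools hardly differed. Against the Tn- pool the members' sum was 3.58-fold and 6.61-fold higher in the Tn+ pools, where the other probes without miR-451 were 8.70-fold and 8.72-fold higher. Leaving out miR-1224, the members' sum was 2.16-fold and 4.90-fold higher. These are comparisons of single pools and were not tested, since probes are not replicates.

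As a share of pool signal the members weighed most in Tn- serum. They are 19.4% of the probes and held 4.75% of all signal in Tn+ pool 1 and 16.3% in Tn+ pool 2, against 18.7% in the Tn- pool. The gap between the Tn+ pools was larger than the gap between Tn+ pool 2 and the Tn- pool. Without miR-451 the shares were 17.2%, 27.7% and 33.6%, in the same order. miR-1224 alone made up 74.3% and 68.4% of the members' signal in Tn+ serum, against 57.4% in Tn- serum. The 108 members other than miR-1224 and miR-2137 held 0.839% and 2.43% of the signal in Tn+ serum, against 7.33% in Tn- serum. All these sums count floor values, which weigh most in the Tn- pool, where only 17 of the 110 members were above the floor. The 57.4% is thus lowered and the 7.33% raised by the floor. With floor values at 0 the share of all members was 4.66% and 16.2% in Tn+ serum and 18.7% in Tn- serum.

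**Figure D3:**
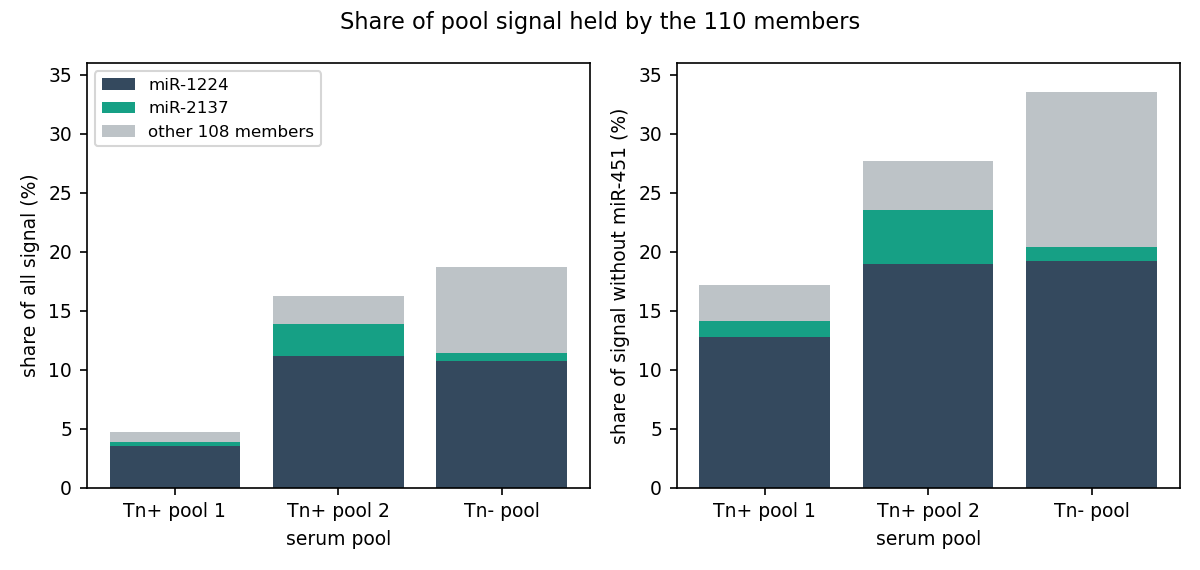
Share of all signal (left) and of signal without miR-451 (right), in percent, held by miR-1224, miR-2137 and the other 108 members in each serum pool. Bars are single pools with no error, and floor values are counted. The Tn- bar is the highest in both panels, at 18.7% and 33.6%, and its miR-1224 segment is close to that of Tn+ pool 2.

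For 7 of the 13 members reaching 10 units the direction of the mean ratio changed with the scaling of the pools. Median-of-ratios scaling, on the 60 probes measured above the floor in every pool, took away a 3.18-fold gap between Tn+ and Tn- serum. The gap taken away was 6.06-fold with the 100 highest probes and 10.4-fold when the totals were made equal. Those 100 were picked by their mean over the pools, and some, such as let-7b and miR-144, were at the floor in Tn- serum. The 6.06-fold gap thus rests in part on that floor. miR-2137 had a positive mean log2 ratio under all 3 scalings, from 0.64 to 2.33, though its Tn+ pool 1 was below the Tn- pool with equal totals (log2 ratio -0.76). For miR-1198, miR-2138, miR-1186 and miR-1933-5p the Tn- value is the shared floor, below which no value can fall, so a negative ratio was not possible and the sign of their ratios says nothing. With equal totals Tn+ pool 1 was itself at that floor for all 4. miR-1224 had a mean log2 ratio of 0.92 by the median of ratios, -0.0027 by the 100 highest probes and -0.78 by equal totals. miR-1196, miR-1942, miR-1944, miR-2135 and miR-2183 were negative under all 3 scalings, and miR-2133 under 2. miR-720 was negative on every scale, at -2.58 by the median of ratios, -3.46 by the 100 highest probes and -4.02 by equal totals. With equal totals its Tn+ pool 1 was also at the shared floor (5.14 units), so -4.02 rests in part on that floor. Its limma adjusted p among the 58 probes averaging 10 units or more was 0.256, 0.336 and 0.0405 in that order, and with equal totals 4 of the 58 (6.90%) passed. Its adjusted p ranged from 0.0405 to 0.920 over all alternatives. After the 3 scalings 4, 9 and 10 members were lower by 2-fold or more in both Tn+ pools, against 3.71%, 5.83% and 6.89% of all probes, and 3, 0 and 0 were as much higher, against 5.83%, 3.18% and 1.77%. In limma over all probes after these scalings 3, 7 and 8 members passed, against 3.00%, 5.83% and 6.18% of all probes. Each of these members was lower in Tn+ serum and had both Tn+ pools at the shared floor, where the spread is 0.

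**Figure D4:**
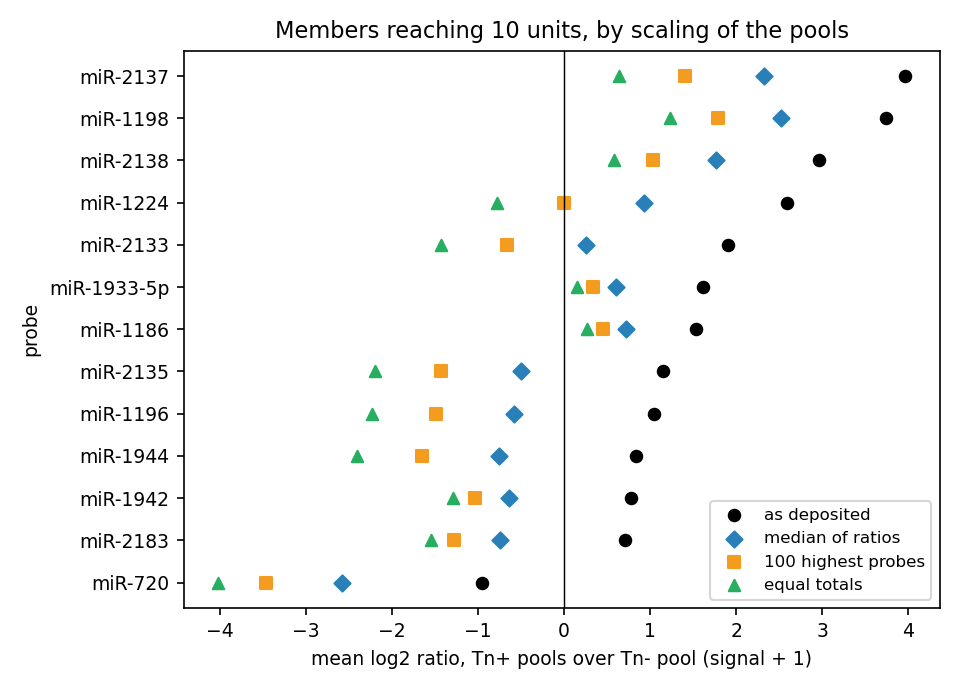
Mean log2 ratio of the Tn+ pools over the Tn- pool on signal + 1 (horizontal) for the 13 members reaching 10 units, as deposited and after 3 scalings of the pools. As deposited 12 of the 13 are above 0, and miR-720 is below 0 in each setting. The count of 12 is set in part by the choice of members, some of which reached 10 units in Tn+ serum alone. Where the Tn- value was the floor, a negative ratio was hardly possible. For miR-1196, miR-1942 and miR-2183 Tn+ pool 1 was below the Tn- pool. No such count was taken for the other probes reaching 10 units, so the 12 are not read as a direction of the members.

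The probes most like miR-1224 in their pair of Tn+ over Tn- log2 ratios, among 57 other probes with a mean of 10 units or more, were miR-328 (distance 0.35), the member miR-2138 (0.53) and miR-205 (0.86). miR-328 had 33.0 and 42.0 units in Tn+ serum and 4.81 in Tn- serum. Most like miR-2137 were the member miR-1198 (distance 0.33), the red cell miRNA miR-486 (0.58) and let-7c (0.87). miR-486 had 1058 and 2268 units in Tn+ serum and 98.6 in Tn- serum, and like miR-2137 it was higher in Tn+ pool 2 than in Tn+ pool 1. The red cell markers miR-451 (43042.5 and 13159.2 units) and miR-144 (477 and 171 units) were lower in Tn+ pool 2, so the likeness is to miR-486 alone. The distance rests on 2 ratios that share the Tn- pool, so it describes likeness in these pools alone. miR-1198, let-7c and miR-2138 were at the floor in Tn- serum, so their distances are set by the floor and the added 1. With floors at 3 grid steps, tried after seeing the data, miR-1198 was the 7th nearest to miR-2137 (distance 1.77) and miR-486 the nearest, while miR-328 was still the nearest to miR-1224 and miR-2138 the 7th (0.92).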

How the data were processed

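Serum RNA (200 µL of serum into 20 µL, about 30 ng hybridized for 16.5 h) was measured on the nCounter Mouse v1.5 miRNA assay, per the labels' protocols. What the authors deposited is normalized signal for each probe in each pool. The series' design text names the nCounter Advanced Analysis Software for that step, and the submitters' processing notes list R 4.4. How background was treated, and which probes set the scale, is not given in the sources used here. A second deposited table held the same signal in 1698 of 1698 values.

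The members and lists were chosen with earlier results of these data known. Log2(signal + 1) of all 566 probes was fitted with limma 3.58.1 in R 4.3.3 (lmFit, eBayes, no covariate, Benjamini-Hochberg at 0.05), tested on simulated data, where the slope was recovered and some false calls were made. Such ratios understate changes of low probes. Depth is unknown, since it is not stated whether background was subtracted, or how much, and no counting interval is given. After scaling, values below the highest scaled floor were set to it. With floors at 3 grid steps only values at the floor were raised, so measured values under 3 steps then lay below them. For miR-1186, 1.67 units in Tn+ pool 1 then stood against 3.23 units in the Tn- pool, where it was at the floor. Members of 10 units or more in some pool were given in full, others by range. Any member above the floor could be named. Python 3.11.15 and pandas 2.3.3 were used for the rest. Alternatives were scaling, pseudocount (10), filters, floor value and single Tn+ pools.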

Additional observations from a re-analysis of the deposited data

How the results depend on the processing

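No paired analysis was possible because the Tn+ and Tn- pools share fewer than 2 replicate numbers. Pseudocount 10 kept the count of members called by limma at 0. Over all probes, limma called 8, 3 and 7 members after equal-total, median-of-ratios and top-100 scaling. All were lower in Tn+ serum with both Tn+ pools at the shared floor, where the spread is 0, so these calls carry no replicate error. Both filters gave 2 calls. With scaling and the mean filter together, chosen after seeing the data, equal totals gave 1 call (miR-720) and the other 2 scalings gave 0. Members meeting the 2-fold rule upward numbered 0, 3 and 0 after equal-total, median-of-ratios and top-100 scaling, 4 with pseudocount 10 and 6 with floors at 3 grid steps, and 14 to 15 with a single Tn+ pool. Downward they numbered 10, 4 and 9 after the same scalings and 1 with either Tn+ pool alone. The median log2 ratio of members above the floor was 0 after each scaling. That 0 comes from setting low values to the shared floor, so it does not show equal levels. Among the 13 members above the floor in every pool, it was -1.54, -0.58 and -1.29 after the same scalings in that order. Over all 60 such probes it was -1.01, 0.031 and -0.59. For members above the floor somewhere it was 0.18 with floors at 3 steps and 0.14 with pseudocount 10. It was 1.90 among members with a mean of 10 or more, and 0.34 to 0.36 with single Tn+ pools. The mean filter averages 2 Tn+ pools and 1 Tn- pool, and miR-1198 and miR-2138 passed it through the Tn+ pools alone. The 1.90 is therefore set in part by the filter, and no median over all 58 probes passing it was taken. The ratio of the members' sums was 4.87 as deposited, 0.469 with equal totals, 0.803 after top-100 scaling, 1.53 after median-of-ratios scaling and 3.58 to 6.61 with single Tn+ pools. Without miR-451 the members' share was 17.2% and 27.7% in Tn+ serum and 33.6% in Tn- serum. Without miR-1224, an alternative chosen after seeing the data, it was 5.79% in Tn+ pool 2, against 8.95% in Tn- serum.

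Mean log2 ratios that changed sign, given after equal-total, median-of-ratios and top-100 scaling, were -2.23, -0.58 and -1.48 for miR-1196, -1.29, -0.64 and -1.04 for miR-1942, -2.41, -0.76 and -1.66 for miR-1944, -2.19, -0.51 and -1.43 for miR-2135, and -1.54, -0.75 and -1.29 for miR-2183. After equal-total and top-100 scaling they were -0.78 and -0.0027 for miR-1224 and -1.43 and -0.66 for miR-2133. With single Tn+ pools the log2 ratio was -0.083 to 2.18 for miR-1196, -0.085 to 1.63 for miR-1942 and -0.12 to 1.54 for miR-2183. With floors at 3 grid steps limma called 5 members over all probes, namely miR-1198, miR-1224, miR-2133, miR-2137 and miR-2138, against 7.60% of all probes. In that fit the members given in full shared 1 standard error, so their own spread did not set the calls. The same held for those tested in both filtered fits and with equal totals and the mean filter together. Differences of a few grid steps cannot be resolved at this signal.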
